A study of Mus musculus with 40 samples.

Results

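Matrix glycoproteins and matricellular proteins are the non-collagen part of the extracellular matrix. The 10 genes described here are Fn1, Fbn1, Eln, Bgn, Vcan, Postn, Tnc, Sparc, Thbs1 and Thbs2, chosen by name from the 55487 genes of the deposited count table. All 10 were counted and all 10 passed the filter on low counts, which kept 20297 genes. Fn1, which hepatocytes make for the plasma, was set against the other 9, which in liver are known mainly from stellate cells, fibroblasts and other stromal cells.

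Livers came from female C57BL/6JBomTac mice, 9 weeks old at the start, kept on a purified diet (PD), and were taken after 3, 6, 12 or 21 days of it. The sample labels list these days as age, and that they are days of PD comes from the study's methods. All mice carried floxed Nampt (Nampt fl/fl), the gene of the enzyme that turns nicotinamide into the NAD precursor NMN. Hepatocyte-specific Nampt knockout (HNKO) mice also carried 1 copy of Cre driven by the albumin promoter (Alb-Cre+/-), so the deletion is aimed at hepatocytes. Nampt in the single cell types was not measured in these whole liver data. WT mice were floxed littermates without Cre. Total RNA of whole liver was sequenced, and 38 of 40 libraries were used, in 8 groups: 5, 4, 5 and 5 WT and 5, 5, 6 and 3 HNKO libraries at days 3, 6, 12 and 21. The other 2, both HNKO at day 21, were labelled as failing quality control.

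The 38 libraries held 16151037 to 64181492 counts, with a median of 26466478.5. Nampt was lower in HNKO than in WT by log2 fold changes of -0.93, -0.90 and -0.82 at days 3, 6 and 12 (adjusted p = 0.0193, 0.0128 and 0.0208), and at day 21 its log2 fold change was -0.69 ± 0.27 (SE, adjusted p = 0.161). The genotypes overlapped in Nampt at day 6 and at no other day. The share of counts from mitochondrially encoded genes was 4.07% to 6.03% in HNKO and 6.14% to 7.50% in WT at day 6, and 2.59% to 3.18% in HNKO and 3.85% to 7.62% in WT at day 21, with no overlap at either day. At day 12 it was 2.85% to 6.76% in HNKO and 6.59% to 8.33% in WT, and its part in the results was not tested. Hepatocyte markers (10 genes, albumin among them) summed to 92174 to 142132 CPM (counts scaled to library size) in HNKO and 110589 to 146279 in WT, as the liver label says. At day 6, where most members were called, the sum was lower in every HNKO library (92174 to 120850 CPM) than in every WT library (131155 to 133795 CPM). There 2 of the 10 markers were called lower, against 4.37% of all genes, and 0 higher. The 2 were Alb (log2 fold change -0.67, adjusted p = 0.0138) and Ttr (-0.64, adjusted p = 0.0189), and the median log2 fold change of the 10 was -0.33. The part of this in the results was not tested. In whole liver, fewer cells of a type and less RNA per cell cannot be told apart.

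As background, fibronectin (Fn1) is a dimeric glycoprotein that hepatocytes secrete into plasma and that fibroblasts and activated stellate cells lay down as fibrils. Fibrillin-1 (Fbn1) builds the microfibrils on which elastin (Eln) is deposited, and microfibrils also hold latent TGF-beta. Biglycan (Bgn) and versican (Vcan) are proteoglycans. Tenascin-C (Tnc), the thrombospondins (Thbs1, Thbs2), SPARC (Sparc) and periostin (Postn) are matricellular proteins, which signal to cells through the matrix more than they build it, and which are known from wounds and scarring liver.

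Fn1 (chromosome 1, 71585520 to 71653200 of GRCm38, minus strand) was by far the most abundant of the 10 when levels were compared per exon length. Its level over the 19 WT libraries was 282 ± 96.1 CPM per kb of exon (SD), which ranked 149 among 20287 tested genes with a length. Sparc followed with 16.4 ± 2.94 CPM per kb and Bgn with 11.8 ± 1.87, and the WT libraries of these genes overlapped. Postn came next at 2.40 ± 0.53 CPM per kb. Fbn1 (1.29 ± 0.205), Thbs2 (0.951 ± 0.171), Thbs1 (0.681 ± 0.289), Eln (0.440 ± 0.207) and Tnc (0.336 ± 0.116) formed a run in which each gene, starting from Postn, overlapped the next. Vcan was lowest at 0.0520 ± 0.0251 CPM per kb, below every WT value of Tnc. From Fn1 to Vcan the mean WT levels per kb spanned 5420-fold over all days, and 3406-fold, 4494-fold, 5594-fold and 9277-fold at days 3, 6, 12 and 21. The counts were made per gene, so the plasma and cellular splice forms of fibronectin are summed in Fn1.

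**Figure D1:**
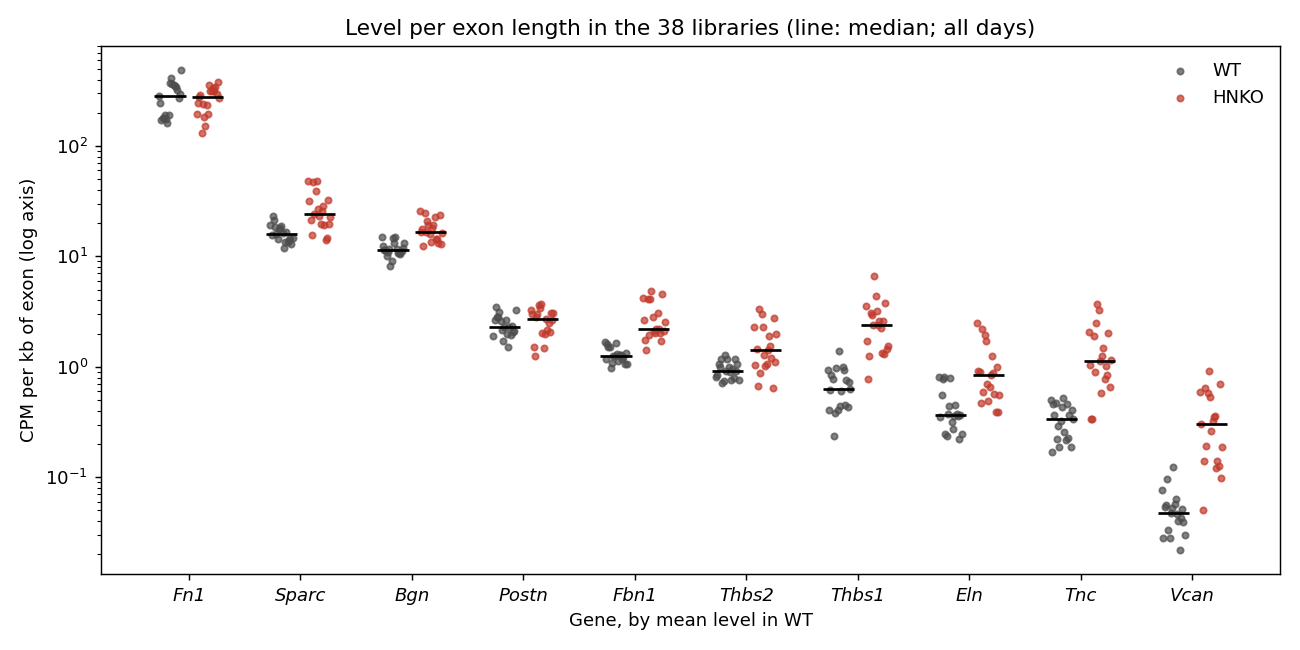
CPM per kb of exon on a log axis for each gene in the 19 WT (grey) and 19 HNKO (red) libraries of all days, with the median as a line. Fn1 lies between 131 and 488 in both genotypes, while the Vcan median is 0.0472 in WT and 0.306 in HNKO.

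The first question was which of these genes differ between HNKO and WT liver at each day of PD feeding. At day 3, 5 of the 10 genes were called (edgeR quasi-likelihood test, Benjamini-Hochberg adjusted p under 0.05), against 4.66% of all genes tested. The counts were 7 of 10 against 12.8% at day 6, 4 of 10 against 7.82% at day 12 and 4 of 10 against 3.12% at day 21. Every called member was higher in HNKO. Fbn1, Vcan, Tnc and Thbs1 were called at all 4 days, Bgn at days 3 and 6, and Eln and Sparc at day 6. Fn1, Postn and Thbs2 were called at no day. The median log2 fold change of the 10 genes was 0.89, 1.21, 0.58 and 1.06 at days 3, 6, 12 and 21, while that of all genes tested lay between -0.01 and 0.01.

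Separation of the libraries gave a second count that does not lean on the model. At day 3 the HNKO and WT libraries overlapped in all 10 genes, so 0 were separate, against 4.11% of all genes. At day 6, Fbn1, Eln, Bgn, Vcan, Tnc, Sparc and Thbs1 were higher in every HNKO library than in every WT library, 7 of 10 against 12.8%. At day 12 only Fbn1 and Tnc were separate, 2 of 10 against 4.79%. At day 21, with 3 HNKO libraries, Fbn1, Eln, Vcan, Tnc, Sparc and Thbs1 were separate, 6 of 10 against 13.9%.

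**Figure D2:**
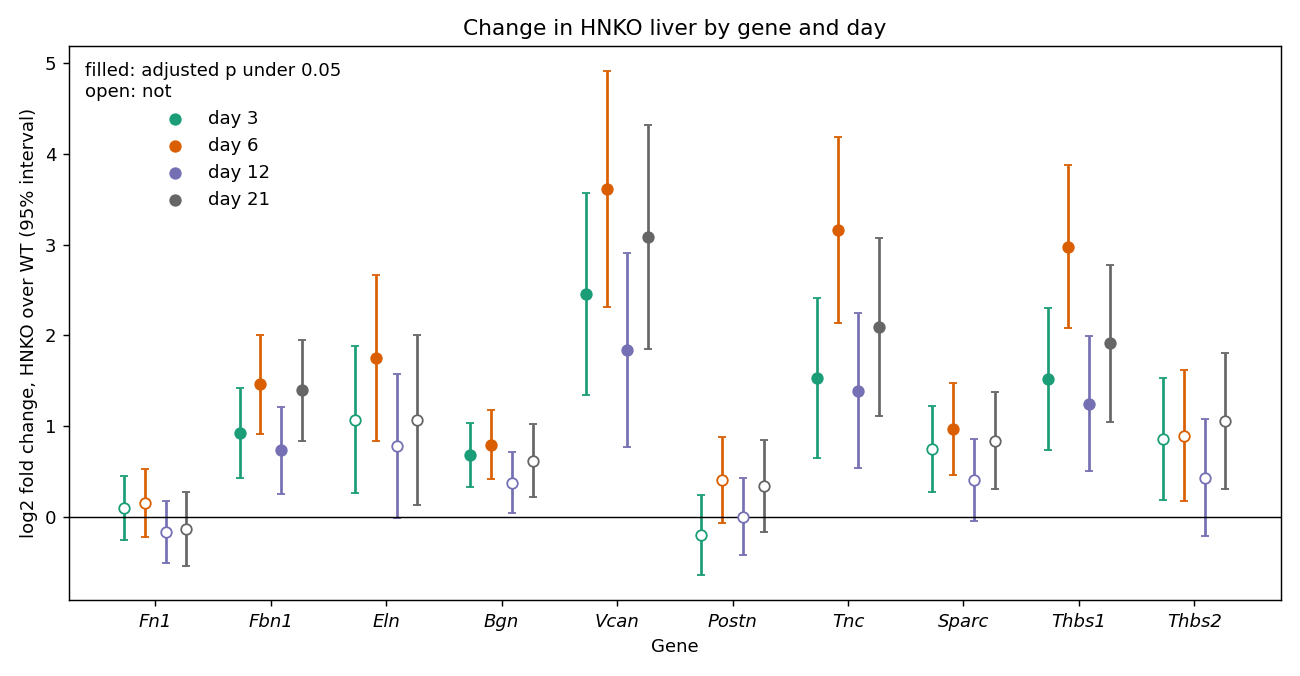
Log2 fold change of HNKO over WT for each gene, with its 95% interval from the edgeR fit, by day. Filled points passed adjusted p under 0.05 and open points did not. Vcan reaches 3.61, Tnc 3.16 and Thbs1 2.98 at day 6, and the Fn1 estimates stay between -0.17 and 0.15.

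How firmly the calls stood differed by day. Leaving out 1 library at a time changed the day 6 count only to between 6 and 8. At day 3 the count fell to 2 without WT library 5 or 25 and to 1 without HNKO library 2 or 23, and it rose to 8 without HNKO library 22. At day 12 no member was called without WT library 16, 33 or 34 or without HNKO library 12 or 13, 1 without WT library 15 or HNKO library 11, and 2 without HNKO library 35. At day 21 no member was called without HNKO library 37 and 7 were called without HNKO library 38. Vcan was the only member called at day 3 in all 10 of these fits. The share of all genes called in each fit without a library was not counted. A rise or fall is therefore not shown to be particular to the members.

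Fn1 did not pass the test at any day. Its log2 CPM at day 3 was 11.70, 11.48, 10.97, 11.03 and 11.03 in the WT and 11.14, 11.47, 11.67, 11.72 and 10.58 in the HNKO libraries, so the HNKO values lay on both sides of the WT values. Its log2 fold change was 0.10 ± 0.17 (SE, 95% interval -0.25 to 0.45, adjusted p = 0.799) at day 3 and 0.15 ± 0.18 (-0.22 to 0.53, adjusted p = 0.657) at day 6. At day 12 the WT libraries held 12.07, 12.23, 12.07, 12.02 and 12.00 log2 CPM, and the 6 HNKO libraries ran from 11.83 through a median of 11.89 to 12.02. All 6 HNKO libraries were under the WT median there, 5 of them under every WT library. The estimate was -0.17 ± 0.17 (-0.50 to 0.17, adjusted p = 0.571), and at day 21 it was -0.13 ± 0.20 (-0.54 to 0.28, adjusted p = 0.800). An antisense gene, Apol7d, overlaps Fn1 by 292 exon bases but held at most 34 counts in a library, against at least 33761 for Fn1.

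**Figure D3:**
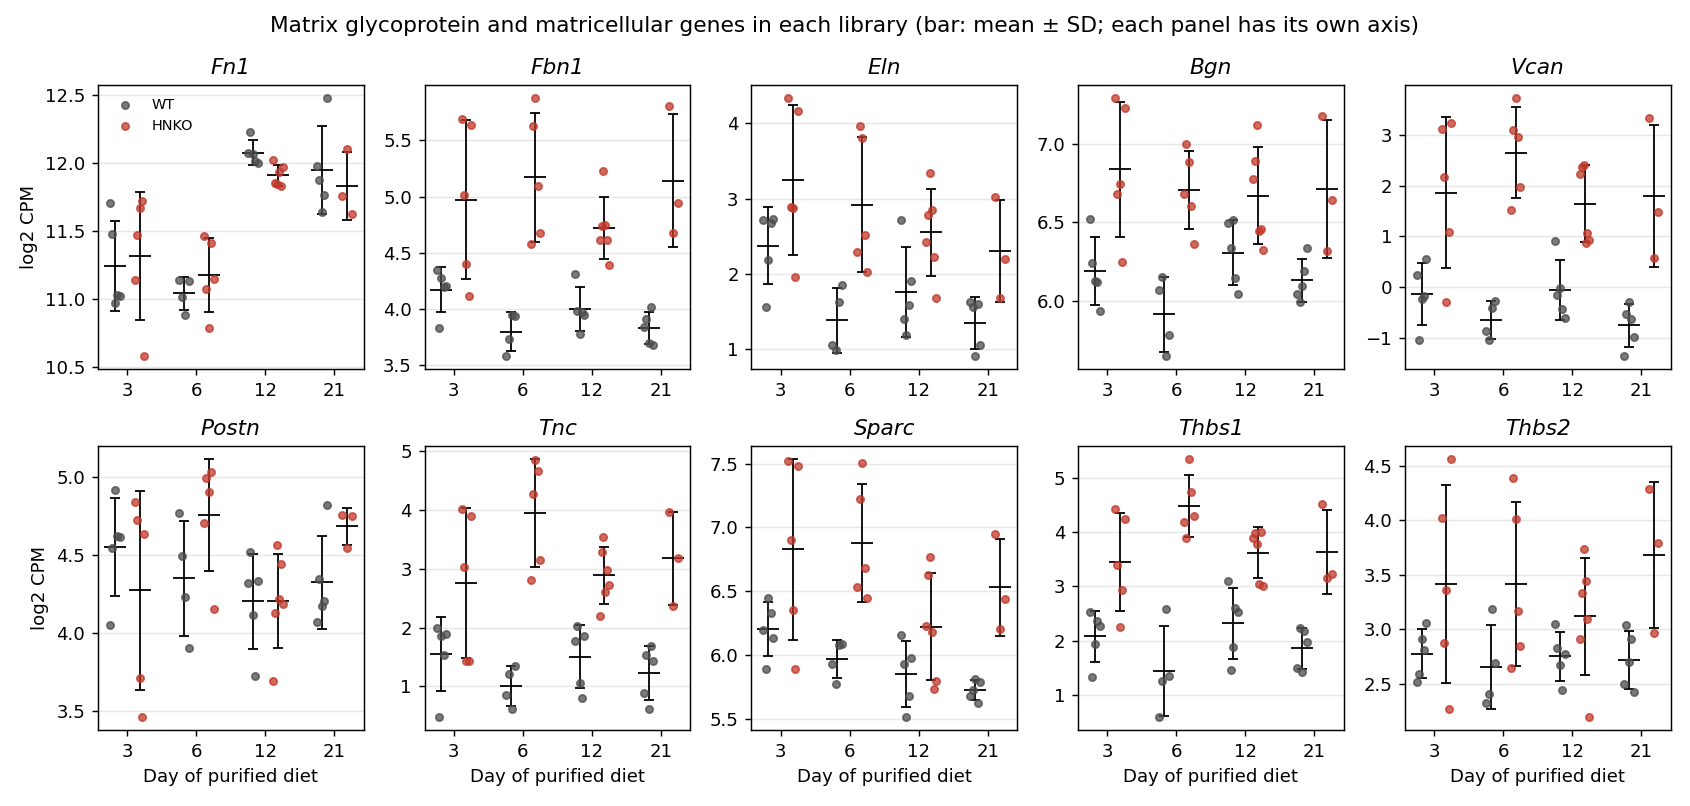
Log2 CPM of each gene in each of the 38 libraries by day of PD feeding, WT in grey and HNKO in red, with the group mean and SD as bars and an own axis for each panel. At day 6 the HNKO points of Fbn1, Eln, Bgn, Vcan, Tnc, Sparc and Thbs1 lie above all WT points, and Fn1 is higher at days 12 and 21 than at days 3 and 6 in both genotypes.

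Fbn1, the microfibril gene (chromosome 2, 125300594 to 125507993, minus strand), was higher in HNKO at all 4 days. At day 6 its log2 CPM was 3.58, 3.73, 3.94 and 3.94 in WT and 4.58, 5.63, 5.88, 5.10 and 4.68 in HNKO. Every HNKO library was above every WT library, and the HNKO SD (0.57) was larger than the WT SD (0.18). The log2 fold change was 1.46 ± 0.27 (adjusted p = 5.27e-04), or 2.75-fold. It was 0.92 ± 0.24 at day 3 (adjusted p = 0.0257), 0.73 ± 0.24 at day 12 (adjusted p = 0.0486) and 1.40 ± 0.27 at day 21 (adjusted p = 0.00483). At day 12 all 6 HNKO libraries, 4.39 to 5.23 with a median of 4.67, were above the highest WT value of 4.31, but the call held in only 2 of 11 fits that left out a library of that day. Gm9913, a gene on the other strand, shares 2442 of the 12128 exon bases of Fbn1 and held at most 6 counts in a library. Whether the counting used strand is not given, so the effect of this overlap on Fbn1 could not be checked.

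Eln, the elastin gene, passed only at day 6, with log2 CPM of 1.05, 0.98, 1.63 and 1.85 in WT and 2.29, 3.97, 3.81, 2.51 and 2.02 in HNKO. The HNKO libraries were all higher, yet spread over 2.02 to 3.97. The log2 fold change was 1.75 ± 0.45 (adjusted p = 0.00917), and the estimates at the other days were 1.07, 0.78 and 1.07 (adjusted p = 0.108, 0.209 and 0.206). Without HNKO library 37 the day 21 estimate was 0.64 (adjusted p = 0.842), and without HNKO library 22 Eln was called at day 3 (1.28, adjusted p = 0.0356).

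The proteoglycans differed in size of change. Bgn (chromosome X, 73483602 to 73495933, plus strand) is the abundant one, and its log2 fold change was 0.68 ± 0.17 at day 3 (adjusted p = 0.0204) and 0.79 ± 0.19 at day 6 (adjusted p = 0.00447). At day 6 the WT libraries held 6.07, 6.15, 5.65 and 5.79 log2 CPM and the HNKO libraries 6.68, 6.998, 6.88, 6.61 and 6.36. At days 12 and 21 its estimates were 0.38 ± 0.17 and 0.62 ± 0.20 (adjusted p = 0.151 and 0.0712). The day 21 estimate was 0.37 without HNKO library 37 (adjusted p = 0.707) and 0.82 without HNKO library 38 (adjusted p = 0.0282). The day 3 call was lost without WT library 25 or HNKO library 2 or 23.

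Vcan (chromosome 13, 89655312 to 89742509, minus strand) had the highest estimate of the 10 genes at every day and the fewest counts, 8 to 49 in a WT library and 18 to 566 in an HNKO library. At day 6 its log2 CPM was -0.87, -1.05, -0.41 and -0.27 in WT and 1.51, 3.09, 3.73, 2.95 and 1.96 in HNKO, with no overlap. The log2 fold change was 3.61 ± 0.64 (95% interval 2.32 to 4.91, adjusted p = 3.54e-04), or 12.2-fold. It was 2.46 ± 0.55 at day 3 (adjusted p = 0.00916), 1.84 ± 0.52 at day 12 (adjusted p = 0.0278) and 3.09 ± 0.61 at day 21 (adjusted p = 0.00495). At day 21 the 3 HNKO libraries held 3.33, 0.57 and 1.48 log2 CPM, all above the highest WT value of -0.29. Without the first of these, library 37, the log2 fold change was 1.92 and its adjusted p 0.367. Gm4117, a gene on the other strand that shares no exon base with Vcan, held at most 122 counts in a library.

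Tnc (chromosome 4, 63959785 to 64047015, minus strand), the tenascin gene, gave log2 CPM of 0.85, 1.22, 0.62 and 1.35 in WT and 2.80, 4.28, 4.86, 4.66 and 3.15 in HNKO at day 6. The lowest HNKO library was above the highest WT library. The log2 fold change was 3.16 ± 0.50 (adjusted p = 1.34e-04), or 8.96-fold. At day 12 the 6 HNKO libraries ran from 2.20 through a median of 2.86 to 3.54, above the WT libraries at 1.77, 2.03, 1.06, 0.81 and 1.86, with a log2 fold change of 1.39 ± 0.42 (adjusted p = 0.0368). It was 1.53 ± 0.44 at day 3 (adjusted p = 0.0360) and 2.09 ± 0.48 at day 21 (adjusted p = 0.0153). In fits that left out a library of the day, the Tnc call held in 4 of 10 at day 3 and 9 of 9 at day 6. It held in 5 of 11 such fits at day 12 and 7 of 8 at day 21. Within the HNKO mice of day 3, libraries 2, 3 and 23 held 4.01, 3.03 and 3.90 log2 CPM, and libraries 4 and 22 held 1.43 and 1.44, inside the range of the WT libraries.

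Thbs1 (chromosome 2, 118111876 to 118127133, plus strand), whose product activates latent TGF-beta, was called higher in HNKO at all 4 days. Its log2 CPM at day 6 was 0.59, 1.25, 2.58 and 1.35 in WT and 4.18, 3.88, 5.34, 4.73 and 4.29 in HNKO. The genotypes were separate although the WT SD of 0.83 was larger than the HNKO SD of 0.57. The log2 fold change was 2.98 ± 0.44 (adjusted p = 5.44e-05), or 7.89-fold, and it was 1.52 ± 0.38 at day 3 (adjusted p = 0.0200), 1.25 ± 0.37 at day 12 (adjusted p = 0.0312) and 1.91 ± 0.42 at day 21 (adjusted p = 0.0120). In fits that left out a library of the day, the Thbs1 call held in 7 of 10 at day 3 and 9 of 9 at day 6. It held in 3 of 11 such fits at day 12 and 7 of 8 at day 21.

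Thbs2, a paralog known as an inhibitor of angiogenesis, was called at no day. Its log2 fold changes were 0.85, 0.89, 0.43 and 1.05, with adjusted p of 0.124, 0.0946, 0.422 and 0.104. At day 6 its log2 CPM was 2.33, 2.41, 3.18 and 2.69 in WT and 2.65, 4.39, 4.02, 3.17 and 2.85 in HNKO, so 2 of 5 HNKO libraries were above every WT library. The 95% interval at day 6 ran from 0.17 to 1.62. Single libraries moved these estimates: without HNKO library 23 the value at day 3 was 0.50 (adjusted p = 0.445), and without HNKO library 7 the value at day 6 was 0.59 (adjusted p = 0.311). Thbs2 was called without HNKO library 22 at day 3 (adjusted p = 0.0350), without HNKO library 6 at day 6 (adjusted p = 0.0445) and without HNKO library 38 at day 21 (adjusted p = 0.0493).

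Sparc, a collagen-binding protein and the second most abundant of the 10 per kb, passed at day 6 alone. Its log2 CPM there was 5.93, 5.78, 6.08 and 6.09 in WT and 6.53, 7.22, 7.51, 6.68 and 6.45 in HNKO. The log2 fold change was 0.97 ± 0.25 (adjusted p = 0.00953), which became 0.80 with an adjusted p of 0.0534 without HNKO library 29. At day 21 every HNKO library (6.95, 6.21 and 6.44) was above the highest WT value of 5.81, while the estimate of 0.84 ± 0.26 had an adjusted p of 0.0681. DESeq2 called Sparc at days 3 and 21 as well, and so did edgeR without HNKO library 4 or 22 at day 3 and without HNKO library 38 at day 21.

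Postn, the periostin gene, which binds collagen and integrins and marks many scars, had log2 fold changes of -0.20, 0.40, 0.00 and 0.34 at days 3, 6, 12 and 21, with adjusted p of 0.654, 0.272, 0.995 and 0.511. Its log2 CPM at day 6 was 4.77, 4.49, 4.23 and 3.90 in WT and 4.71, 4.99, 4.90, 5.03 and 4.16 in HNKO, and the genotypes overlapped at every day. Its 95% intervals ended at 0.24, 0.88, 0.43 and 0.84, under the lower bounds of 0.64, 2.14, 0.54 and 1.11 of Tnc at each of the 4 days. At day 6 the Postn interval also ended under the lower bounds of Fbn1 (0.92), Vcan (2.32) and Thbs1 (2.08). It ended above those of Eln (0.83), Sparc (0.46), Bgn (0.41) and Thbs2 (0.17). Postn was not tested against the other stromal genes.

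Promoter sequence is shown for Vcan and Tnc, which were called at all 4 days, and for Postn, which was called at none. Each run is the 250 bases before a RefSeq transcript start on the GRCm38.p6 assembly, and RefSeq windows were matched for 7 of the 10 genes (Bgn, Fbn1, Postn, Sparc, Thbs2, Tnc and Vcan). For Tnc and Postn, RefSeq gives 2 starts each, and the window beside the GENCODE gene start is printed. Capitals mark the motif GGGCGG of SP and KLF factors and TATAAA, the letters of a TATA box, on either strand.
Vcan, chr13:89742513-89742762, minus strand: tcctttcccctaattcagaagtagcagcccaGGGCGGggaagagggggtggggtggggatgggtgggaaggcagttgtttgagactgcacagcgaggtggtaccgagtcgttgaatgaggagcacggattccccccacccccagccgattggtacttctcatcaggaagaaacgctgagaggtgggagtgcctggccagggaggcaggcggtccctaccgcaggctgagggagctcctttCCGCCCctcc
Tnc, chr4:64047016-64047265, minus strand: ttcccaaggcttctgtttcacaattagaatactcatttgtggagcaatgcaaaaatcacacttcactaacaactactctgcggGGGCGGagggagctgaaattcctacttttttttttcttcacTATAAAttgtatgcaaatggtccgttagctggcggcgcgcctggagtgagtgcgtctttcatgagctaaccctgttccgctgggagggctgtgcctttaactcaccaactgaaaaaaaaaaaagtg
Postn, chr3:54360857-54361106, plus strand: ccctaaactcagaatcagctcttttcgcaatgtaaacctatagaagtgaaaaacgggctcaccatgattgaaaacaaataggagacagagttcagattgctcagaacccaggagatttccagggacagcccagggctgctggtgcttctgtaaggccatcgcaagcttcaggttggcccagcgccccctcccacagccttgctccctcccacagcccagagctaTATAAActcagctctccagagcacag

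The Vcan window held GGGCGG 219 bases before the start and its reverse complement 10 bases before it, and no TATAAA. The printed Tnc window held GGGCGG 167 and TATAAA 126 bases before the start. Before the other Tnc start, whose window overlaps this one, the same motifs lay at 246 and 205 bases. The printed Postn window held TATAAA 26 bases before the start and no GGGCGG, and the window of the other Postn start (chr3:54359017-54359266) held neither. Over all 32851 RefSeq windows of 250 bases, 32.7% held GGGCGG and 12.4% held TATAAA on either strand. Of the 9 windows of the 7 genes, 5 held GGGCGG (4 genes) and 4 held TATAAA (3 genes). The motifs TGANTCA (AP-1) and GGAATG (TEAD), found in 6.75% and 12.6% of all windows, were in 0 of the 9 windows of the 7 genes. GTCTG (SMAD) was in 4 of the 9 windows against 42.2% of all, and TTGGC (NF-1 half-site) in 3 against 41.5%. These are exact matches of letters only, and near-matches were not counted. The TATAAA at 126 or 205 bases before a Tnc start is therefore not shown to act as a TATA box.

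Whether the stromal genes changed by a different amount than Fn1 was tested with limma on each gene's log2 CPM minus that of Fn1 in the same library, over all genes. At day 6 the difference passed for Thbs1 (2.90 ± 0.48, adjusted p = 2.85e-04), Tnc (2.80 ± 0.54, adjusted p = 0.00187) and Vcan (3.16 ± 0.63, adjusted p = 0.00261), 3 of 9 against 3.31% of genes. For Fbn1 it was 1.24 ± 0.37 (adjusted p = 0.0526). At days 3, 12 and 21 limma called 0 of the 9 genes, where the background was 0.660%, 1.13% and 0.168%, and 5, 6 and 7 of them had an unadjusted p under 0.05, against 10.7%, 14.8% and 8.28% of all genes. At day 6 it was 7 of 9 against 17.6%. The difference was above 0 at all 4 days for every stromal gene except Postn. A change unlike that of Fn1 was shown for these 3 genes at day 6, and for the other genes and days the test did not pass.

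The days were compared in both genotypes. Fn1 was the 1 member called for day within WT, where 5.84% of genes were called, with log2 differences from day 3 of -0.23, 0.81 and 0.70 at days 6, 12 and 21 (adjusted p = 2.13e-04). It was also the 1 member called within HNKO, where 7.90% were called, with differences of -0.17, 0.54 and 0.47 (adjusted p = 0.0116). The mice of different days were different animals. For the other 9 genes no change over the days passed in either genotype. The largest unadjusted signals within HNKO were Sparc (adjusted p = 0.0939) and Tnc (adjusted p = 0.120), the latter with 1.01 at day 6 over day 3.

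The genotype effects were higher at day 6 than at the other days in the estimates of all stromal genes but Thbs2. edgeR called 0 of the 10 genes, and 0% of all genes, for an interaction of genotype and day. At an unadjusted p under 0.05 there were 2 members, Thbs1 (adjusted p = 0.996) and Tnc (adjusted p = 0.9998), and 966 of all genes. A different effect between days was therefore not shown for any of the 10.

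Libraries differed within groups, and the stromal genes differed together. Over the 38 libraries, the 28 pairs among the 8 genes other than Fn1 and Postn had Pearson r of log2 CPM from 0.64 to 0.94, and from 0.34 to 0.91 after the mean of each group was removed. Postn was less like them, with r of 0.26 to 0.52, and of 0.20 to 0.66 without group means. These values are descriptions, since the points share libraries and their scaling.

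The deviations of Fn1 within groups were set against those of the other genes, with WT and HNKO libraries pooled. Its deviation from the group mean was negatively related to that of 7 of the other 9 genes (adjusted p under 0.05 over 9 relations, permutation of libraries within groups, n = 38). The same 7 had an unadjusted permutation p under 0.05, against 13.2% of all genes tested with a negative relation at that level. With p adjusted over all genes 3 of the 9 passed, Thbs2, Fbn1 and Sparc (adjusted permutation p = 0.00895, 0.0476 and 0.0488), against 2.84% of genes, and the median r of all genes with Fn1 was -0.02. For Thbs2 r was -0.68 (permutation p = 3.0e-05, adjusted p = 2.7e-04) and Spearman's rho -0.68 (permutation p = 3.0e-05, adjusted p = 2.7e-04). For Fbn1 r was -0.60 (permutation p = 0.00281, adjusted p = 0.00900) and rho -0.54 (permutation p = 0.00382, adjusted p = 0.0145). For Sparc r was -0.56 (permutation p = 0.0030, adjusted p = 0.00900) and rho -0.50 (permutation p = 0.00483, adjusted p = 0.0145). Vcan, Eln, Tnc and Thbs1 gave r of -0.53, -0.52, -0.47 and -0.43, with permutation p adjusted to 0.0167, 0.0157, 0.0443 and 0.0342, and rho of -0.48, -0.50, -0.41 and -0.43, with permutation p adjusted to 0.0161, 0.0146, 0.0443 and 0.0218. Postn (r = -0.31, adjusted permutation p = 0.210) and Bgn (r = -0.22, adjusted permutation p = 0.329) did not pass. The relation was not tested in WT or HNKO alone. Deviations of Fbn1 were larger in HNKO, with SDs of 0.71, 0.57, 0.28 and 0.59 at days 3, 6, 12 and 21. The WT SDs were 0.20, 0.18, 0.19 and 0.14.

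The relation rested in part on a pair of HNKO libraries, picked on the Fn1 level itself, before group means were removed. Library 23 of day 3 and library 29 of day 6 held the lowest Fn1 values of all, 10.58 and 10.79 log2 CPM, beside high stromal values such as 5.64 and 5.88 for Fbn1. Without them, 5 of the 9 had a negative relation at an unadjusted permutation p under 0.05, against 6.52% of all genes, and 3 passed when adjusted over the 9: Thbs2 (r = -0.55, adjusted permutation p = 0.00279), Fbn1 (r = -0.45, adjusted permutation p = 0.0423) and Sparc (r = -0.41, adjusted permutation p = 0.0423). By the deviation from the group mean, the 2 farthest libraries were HNKO library 23 (-0.74) and WT library 41 of day 21 (0.53), and without these 8 of 9 relations passed, by the unadjusted permutation p against 7.79% of all genes and also when adjusted over the 9, an alternative chosen after seeing the data. The library numbers pass through the 4 days once from 1 to 21 and again from 22 to 41. The labels name no batch, and the split into these 2 runs of numbers was inferred from that order. With the mean of each group and run removed, the r values ran from -0.44 for Postn to -0.77 for Thbs2, 7 of 9 had an unadjusted permutation p under 0.05 against 9.58% of all genes, and 5 of 9 passed when adjusted over the 9 (Fbn1, Eln, Vcan, Sparc and Thbs2). With permutation p adjusted over all genes, 0 of the 9 and 0% of all genes passed under each of these 3 alternatives, so the 3 calls over all genes did not hold in them. Libraries 23 and 29 also held the lowest summed hepatocyte markers of their groups, 103536 and 92174 CPM, and the part of the hepatocyte markers in the relation was not tested.

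**Figure D4:**
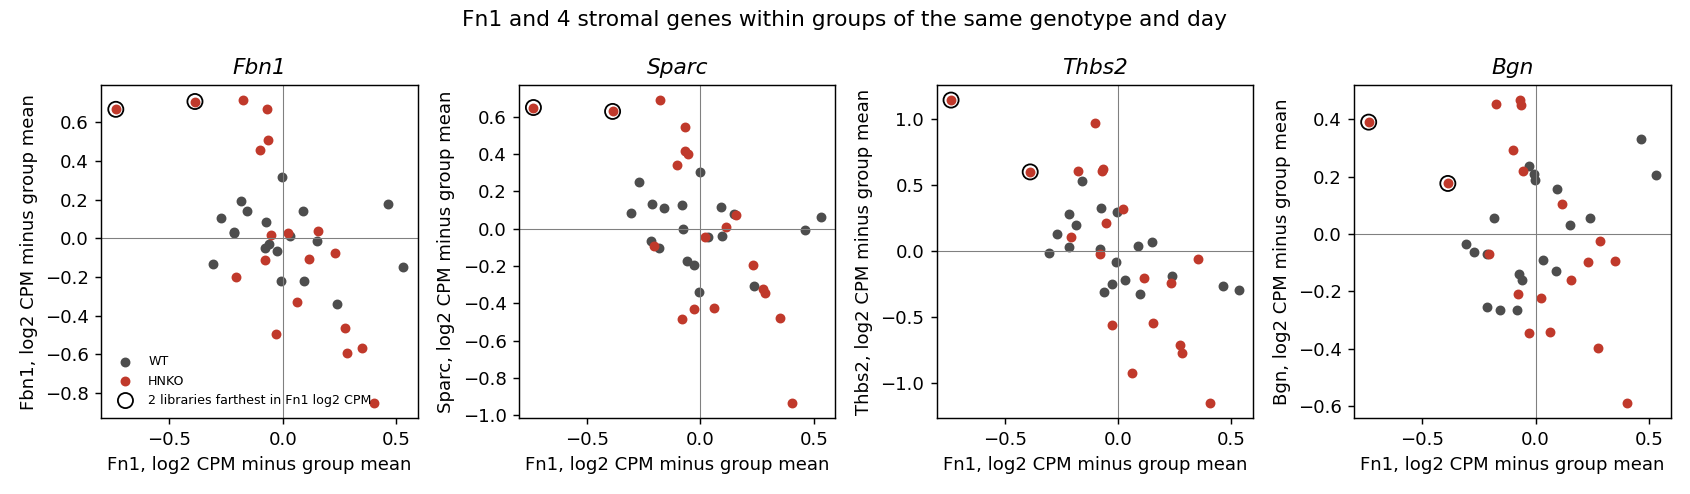
Deviation of log2 CPM from the group mean for Fn1 (horizontal) and for Fbn1, Sparc, Thbs2 and Bgn (vertical), 1 point per library, WT in grey and HNKO in red. Rings mark the 2 libraries whose Fn1 log2 CPM, before group means were removed, was farthest from its median over all 38, and r is -0.60, -0.56, -0.68 and -0.22 in the 4 panels.

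The genes most like each member over the 38 libraries, by Pearson r of log2 CPM, came from different groups. Fbn1 was nearest to Fstl1 (0.99), Col3a1 (0.97) and Col6a3 (0.97), and Sparc to the collagen chaperone Serpinh1 (0.94), Cxcl16 (0.92) and Col3a1 (0.92). Eln was nearest to Dpt (0.91), Mmp2 (0.90) and Ccdc80 (0.90), and Thbs2 to Mmp2 (0.91), Lama2 (0.90) and Lum (0.89). Vcan was nearest to Myof (0.95), Sh3pxd2b (0.94) and Emp1 (0.94), Tnc to Fbn1 (0.93), Iqgap1 (0.93) and Vim (0.92), and Thbs1 to Flna (0.92), Vcan (0.91) and Rasal1 (0.91). Bgn was nearest to Dst (0.91), Olfml3 (0.90) and Bicc1 (0.90). Fn1 had none of these neighbours: its nearest were Lrp1 (0.93), R3hdm2 (0.92) and Spen (0.91). Postn reached only 0.70 with Lyve1, 0.69 with Unc119 and 0.69 with Mest. With group means removed, r stayed between 0.65 and 0.97 for these 30 pairs.

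Other structural glycoproteins and proteoglycans of the matrix were counted from a list of 40 genes, 36 of them tested. The numbers called higher in HNKO were 6, 16, 4 and 5 at days 3, 6, 12 and 21, and 1 was lower at each day. Of all genes tested, 2.95%, 8.42%, 4.56% and 2.21% were called higher at these days, and 1.71%, 4.37%, 3.27% and 0.916% lower. The list's median log2 fold change was 0.33, 0.79, 0.35 and 0.57. Tgfbi, a TGF-beta-induced matrix protein, was higher at all 4 days (0.47, 0.87, 0.44 and 0.61), as was Fbn2, the fibrillin-1 paralog (3.71, 4.37, 2.83 and 3.79). Emilin1, an elastic fiber glycoprotein, was called at days 3, 6 and 21 (0.69, 0.86 and 0.65), and so was lumican, Lum (1.42, 1.30 and 1.59). Ecm1, which restrains TGF-beta activation, was the 1 lower gene, by -0.54, -0.55, -0.88 and -1.17.

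Of 20 other matricellular genes 13 were tested, and 3, 6, 2 and 4 were called higher at days 3, 6, 12 and 21, with none lower, again against 2.95%, 8.42%, 4.56% and 2.21% of all genes. Osteopontin, Spp1, was higher at all 4 days (2.68, 3.22, 2.06 and 2.90), as was Fstl1 of the SPARC family (1.13, 1.68, 0.94 and 1.63). Ccn5 was called at days 3, 6 and 21 (2.39, 1.93 and 2.87), and Smoc2 at days 6 and 21 (1.21 and 1.36). Spp1 is also a marker of bile duct cells.

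Of 21 cell surface receptors for these proteins, 1, 6, 4 and 1 were called higher at days 3, 6, 12 and 21, and 1 was lower at days 6 and 12. The single calls at days 3 and 21 are near the 2.95% and 2.21% of all genes called higher there, and the 6 and 4 at days 6 and 12 stand against 8.42% and 4.56%. Itgb8, an integrin subunit that activates latent TGF-beta, was higher at all 4 days (1.16, 1.47, 0.80 and 1.30). Tlr2 (1.67 and 0.97) and Cd44, the hyaluronan receptor (1.15 and 0.77), were called at days 6 and 12, and Itgb6 (2.36) at day 12. The syndecan Sdc2 was lower at days 6 and 12, by -0.35 at both. The medians of this list, 0.07, 0.25, 0.06 and 0.05, lay nearer to those of all genes than did the medians of the structural and matricellular lists.

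Markers of other liver cells were counted in the same way, beside the shares of all genes called higher (2.95%, 8.42%, 4.56% and 2.21% at days 3, 6, 12 and 21) and lower (1.71%, 4.37%, 3.27% and 0.916%). With 6 to 10 markers on a list, a count of 1 says little against these shares. Of 8 myofibroblast markers, 2, 5, 2 and 5 were called higher at days 3, 6, 12 and 21, and their summed level at day 6 was 61.7 to 94.4 CPM in WT and 201 to 1230 CPM in HNKO. The type I collagen gene Col1a1 was called at all 4 days (1.84, 4.02, 2.03 and 3.07). Of 8 portal fibroblast markers, 1, 4, 2 and 1 were higher, with a summed level at day 6 of 52.3 to 149 CPM in WT and 117 to 256 CPM in HNKO. Of 10 stellate cell markers, 2, 2, 1 and 1 were higher and 1, 1, 3 and 1 lower, and their sum at day 6 overlapped, 473 to 537 CPM in WT against 490 to 630 CPM in HNKO. The median log2 fold change of the stellate markers was 0.15, -0.03, -0.35 and 0.07, and edgeR called 0 of 6 vascular smooth muscle markers at each day, although Actg2 and Synpo2 reached an unadjusted p under 0.05 on at least 1 day. Of 8 Kupffer cell and macrophage markers, 1, 3, 1 and 1 were higher, and their sum at day 6 was 238 to 339.6 CPM in WT and 363 to 605 CPM in HNKO, with no overlap. Of 8 endothelial markers, Vwf was called higher at day 12 and Kdr lower at days 6 and 12. Of 3 tested platelet and megakaryocyte markers, Pf4 was called higher at days 6 and 12, and their sum was higher in every HNKO than in every WT library at day 6 (6.57 to 12.4 against 4.04 to 5.43 CPM), day 12 (4.84 to 6.19 against 3.39 to 4.32) and day 21 (6.202 to 7.51 against 4.31 to 5.31). Of 6 lymphocyte markers, Ms4a1 was called lower at day 3, while at day 12 their sum was 5.52 to 8.21 CPM in HNKO and 3.79 to 5.33 in WT. Of 6 mesothelial markers edgeR called 0 at each day, although Msln and Lrrn4 reached an unadjusted p under 0.05 on at least 1 day, and their median log2 fold change was 1.41 at day 6, with summed levels of 1.83 to 4.65 CPM in WT and 4.02 to 16.2 CPM in HNKO. Of 8 bile duct markers, 5, 5, 5 and 3 were higher, and their sum was 37.7 to 59.6 CPM over all WT libraries and 120 to 946 CPM over all HNKO libraries. No marker on any of the 11 lists was at 0 counts in every library. The part of any of these cell types in the changes of the 10 genes was not tested.

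Within the 2 inferred runs of library numbers, HNKO and WT could be compared 7 times, since at day 21 the used HNKO libraries were all of the second run. Fbn1, Eln, Bgn, Vcan, Tnc, Sparc, Thbs1 and Thbs2 had a higher HNKO mean in 7 of 7 comparisons, Postn in 5 and Fn1 in 3. The share of all genes with a higher HNKO mean in 7 of 7 was not counted. The differences ran from 0.62 to 1.44 log2 CPM for Fbn1, from 0.78 to 3.11 for Thbs1 and from 0.08 to 1.02 for Sparc.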

How the data were processed

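Total RNA of whole liver was sequenced as paired 51-bp reads after ribosomal RNA removal. The authors aligned the reads with STAR 2.7.2b to GRCm38 with GENCODE annotation and counted them per gene with featureCounts 1.6.4, and the deposited values are raw counts. Whether the counting used strand is not given in the sources used here. Groups came from the labels, and the 2 libraries labelled Failed QC were left out. In R 4.3.3, edgeR 4.0.16 was run on the counts as deposited (filterByExpr with a minimum of 10 counts, a minimum total of 15 and a minimum proportion of 0.7, TMM scaling, a mean for each of 8 groups, 30 residual degrees of freedom), and p-values were adjusted over all 20297 genes. SE is the log2 fold change divided by the square root of F. Log2 CPM used a prior count of 2. limma 3.58.1 with a trend tested differences from Fn1. Relations of Fn1 used 100000 permutations within groups, two-sided. Scripts were tested on simulated counts. Exon lengths and gene positions came from GENCODE on GRCm38 and promoters from RefSeq on GRCm38.p6.

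Alternatives were DESeq2 1.42.0, its size factors, other filters, all 40 libraries, the 2 groups of a day alone, the edgeR 4 computation, the run of library numbers (1 to 21 or 22 to 41, inferred from their order, since the labels name no batch) as a covariate, a prior count of 0.5, and leaving out each library. Members, gene lists, markers and motifs were chosen with earlier results of these data known. Named genes were all members, Nampt, up to 4 genes per list and direction that were called at most days, and the 3 genes most like each member. The marker genes named, and the genes overlapping Fn1, Fbn1 and Vcan (Apol7d, Gm9913 and Gm4117), lie outside this rule and were chosen after their values were seen. The labels do not say that library numbers pair animals across groups. P-values measure the spread between libraries, each taken as 1 mouse. Low counts limit the precision of genes such as Vcan, beside the spread between libraries. In HNKO at day 3 Vcan held 18 to 236 counts, with an SD of 1.49 log2 CPM.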

Additional observations from a re-analysis of the deposited data

Results flagged for a closer look

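The 2 HNKO libraries of day 21 that the submitters labelled as failing quality control, 17 and 18, take part in no comparison above. Scaled together with the other 38 libraries, 13 of their 20 values for the 10 genes lay above the highest of the 5 WT libraries of day 21, and 2 lay below the lowest. Fbn1 was at 5.54 and 5.49 log2 CPM in libraries 17 and 18, Eln at 2.58 and 3.12, Sparc at 6.45 and 7.06, Thbs1 at 3.61 and 3.12 and Thbs2 at 3.82 in both, all above WT. Bgn (6.96), Vcan (2.41) and Tnc (3.90) were above WT in library 18 alone. In library 17, Vcan had 0 counts, which allows up to 3 counts in a library of 12287423. Fn1 in library 18 was the other value below WT, at 11.62 against 11.65 to 12.49. Their failed quality control and the genotype cannot be told apart in these values. Within the groups of 4 to 6 libraries, 0 of 70 tests of a gene in a group found a library far from the others by Dixon's rule.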

How the results depend on the processing

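Day 6 was the most stable: its 7 calls were 6 to 8 in all fits without 1 library. The number of members called was 1 to 8 at day 3, 0 to 4 at day 12 and 0 to 7 at day 21 over such fits, and 1 at day 3 when only the 2 groups of that day were fitted. With all 40 libraries it was 1 at day 12 and 7 at day 21, and 1 gene instead of 0 differed from Fn1 at day 21. Leaving out 1 library gave 0 to 1 genes differing from Fn1 at each of days 3, 12 and 21, and 1 to 2 called for day within HNKO. For none of these alternative fits was the share of all genes called counted. The relations of Fn1 that passed fell from 7 to 3 without the 2 libraries farthest from its median, and were 5 with the means of the inferred runs of library numbers removed and 8 without the 2 libraries with the largest deviation of Fn1 from the group mean, both chosen after seeing the data. Adjusted over all genes, 3 passed, and 0 did in each of these 3 alternatives. Of the log2 fold changes, only those of Fn1 and Postn changed sign when 1 library was left out: -0.012 to 0.245 for Fn1 at day 3, -0.257 to 0.0339 for Fn1 at day 21 and -0.101 to 0.0909 for Postn at day 12. The causes were not tested. A minimum of 10 counts in every library left Vcan untested. No paired analysis was possible because the library numbers are unique to a group. Depth limits Vcan most, with 8 counts in its lowest library.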
